A study of Mus musculus with 6 samples.

Results

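Aminoacyl-tRNA synthetases are the enzymes that join each amino acid to its transfer RNA, so that the ribosome can read the genetic code. The genes described here are the 20 cytosolic synthetase genes, 16 genes of mitochondrial synthetases (names ending in 2) and 3 scaffold genes, Aimp1, Aimp2 and Eef1e1. They were taken by symbol from the 34745 genes of the deposited table, each symbol matched a single gene, and all 39 had enough counts to be tested among 12967 genes. In cells given airborne particles the transcripts of 18 of the 20 cytosolic enzymes rose (90.0%, beside 35.2% of all genes tested), up to 6.94-fold for the cysteine enzyme Cars, and those of the other two, Qars and Dars, did not pass the test. Of the mitochondrial enzymes 6 rose, 3 fell and 7 did not pass the test, and the 37.5% that rose is near the 35.2% of all genes tested. All 3 scaffold genes rose.

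The cells were naive CD4 T cells from the spleen of female C57BL/6 mice aged 6 weeks, activated on plates coated with antibodies to CD3 and CD28 and kept for 4 days in a Th17-polarising mix. The mix held the cytokines TGF-beta, IL-2, IL-6 and IL-23, and antibodies that block IL-4 and IFN-gamma. PM2.5, fine airborne particulate matter, was added at 100 µg/ml 6 h into the activation for 3 libraries, and PBS in its place for the other 3. Strain, sex, age and cytokine mix are the same in both groups by the labels. Whether the 3 libraries of a group came from separate mice or cultures is not given in the sources used here, and every p-value here reflects the spread among these libraries alone, which may be technical.

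Cells hold separate sets of synthetases for cytosolic and for mitochondrial protein synthesis, nearly all encoded by different nuclear genes. In the cytosol 8 of the enzymes (those of Eprs, Iars, Lars, Mars, Qars, Rars, Kars and Dars) are held with the scaffold proteins of Aimp1, Aimp2 and Eef1e1 in the multisynthetase complex, and the others act outside it. Uncharged tRNA is sensed by the kinase GCN2, which through the translation factor eIF2 favours production of the transcription factor ATF4, and several cytosolic synthetase genes are known targets of ATF4. ATF4 binds C/EBP-ATF response elements together with C/EBP family proteins. T cells need a large supply of amino acids and of charged tRNA when they grow after activation.

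The response element was searched for as TGATGNAAN on both strands, with no other motif, in the RefSeq promoter table of GRCm38.p6, which covers 250 bases before to 50 bases after each gene's start. It was found in 1299 of 32851 promoters in the table (3.95%). Among the members with an entry it was found for 5 of 13 cytosolic genes, Iars, Gars, Aars, Tars and Yars, for none of 14 mitochondrial genes and for none of the 3 scaffold genes. Cars, Hars, Lars, Nars, Rars, Vars, Wars, Hars2 and Pars2 had no entry. Among the mitochondrial genes the start used lay furthest inside the gene span of the deposited table in Tars2 (5229 bases), Fars2 (232) and Ears2 (177). An entry of the scaffold gene Aimp1 lay 491 bases inside. The 5 cytosolic genes with a match had log2 fold changes (PM2.5 against PBS) of 1.79 to 2.02, and the 8 without one, among them Sars (1.80) and Eprs (1.68), had values of -0.01 to 1.80. A match is a description of the letters in this window, and binding was not measured. Of the stress genes Atf4, Ddit3, Chac1 and Trib3, known members of the ATF4 response, Chac1 and Trib3 had a match and Atf4 and Ddit3 had none. Atf4 itself rose from 185 ± 3.94 to 1023 ± 3.23 CPM (SD, n = 3), a level that is given here only as a reference for the synthetases.

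The stretches from 130 bases before to 24 bases after the start are given 5′ to 3′ on the gene's strand for the 5 cytosolic genes with a match, and for Dars and Qars, the cytosolic genes that did not pass the test and had no match. The other cytosolic genes with an entry and no match, Eprs, Farsa, Farsb, Kars, Mars and Sars, all rose and are not shown. Capitals mark matches to the motif, and positions are counted from 1 at the first base of the RefSeq transcript, with bases before it negative. This start can differ from that of the gene spans of the deposited table, given further on. The RefSeq start lies 698 bases inside the span in Aars, 292 in Qars, 143 in Yars and 30 in Iars. It coincides in Tars, and lies 6 bases before the span in Gars and 48 in Dars.
Iars, chr13:49682000-49682153, plus strand: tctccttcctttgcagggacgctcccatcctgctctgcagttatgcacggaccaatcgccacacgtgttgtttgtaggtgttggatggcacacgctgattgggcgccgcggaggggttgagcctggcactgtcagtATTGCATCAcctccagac
Gars, chr6:55037871-55038024, plus strand: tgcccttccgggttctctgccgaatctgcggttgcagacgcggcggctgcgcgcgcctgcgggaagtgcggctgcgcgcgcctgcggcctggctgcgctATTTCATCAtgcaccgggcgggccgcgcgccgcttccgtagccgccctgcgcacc
Aars, chr8:111033712-111033865, plus strand: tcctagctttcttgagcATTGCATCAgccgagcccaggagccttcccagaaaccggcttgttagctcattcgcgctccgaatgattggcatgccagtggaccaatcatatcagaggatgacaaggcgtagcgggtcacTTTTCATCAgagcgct
Tars, chr15:11399635-11399788, minus strand: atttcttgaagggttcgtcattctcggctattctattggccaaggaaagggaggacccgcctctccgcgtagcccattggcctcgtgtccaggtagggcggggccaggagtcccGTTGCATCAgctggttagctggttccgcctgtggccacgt
Yars, chr4:129189773-129189926, plus strand: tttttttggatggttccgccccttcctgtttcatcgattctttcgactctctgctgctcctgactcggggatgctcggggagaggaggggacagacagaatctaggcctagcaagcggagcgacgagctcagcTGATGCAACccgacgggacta
Dars, chr1:128417393-128417546, minus strand: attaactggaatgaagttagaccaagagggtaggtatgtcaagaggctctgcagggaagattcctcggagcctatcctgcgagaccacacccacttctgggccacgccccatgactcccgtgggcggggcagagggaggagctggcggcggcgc
Qars, chr9:108507875-108508028, plus strand: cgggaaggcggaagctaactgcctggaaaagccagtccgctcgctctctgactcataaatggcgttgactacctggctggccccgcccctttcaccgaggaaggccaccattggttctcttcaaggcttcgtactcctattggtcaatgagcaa
In Iars the match lay at 7 to 15, in Yars at 4 to 12, in Tars at -16 to -8 and in Gars at -31 to -23. Aars had a match at -113 to -105, which is inside its gene span in the deposited table, and another at 9 to 17. Read in the direction of the motif, Iars and the first match of Aars both read TGATGCAAT, and Tars and Yars both read TGATGCAAC. Gars read TGATGAAAT. All but the match of Yars lay on the strand opposite to the gene.

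The libraries held 19511561 to 22353131 counts in the PBS group and 25397965 to 27215853 in the PM2.5 group, so every PM2.5 library was deeper. Levels are in CPM, each count divided by its library's size, after TMM, edgeR's correction for library composition, whose factors were 1.02 to 1.03 in PBS and 0.978 in PM2.5. The summed markers of CD4 T cells stood at 2431 to 2465 CPM (scaled by library totals) in PBS and 2277 to 2332 CPM in PM2.5. Those of 8 lists for other cell types together came to 139 to 143 and 77.9 to 82.1 CPM. Most of this was Pecam1, an adhesion gene that T cells can also express (98.5% of the stromal and endothelial list), and the delta chain gene Trdc (68.5% of the CD8 and gamma-delta T cell list). The defining genes Lyz2, Ms4a1, Ncr1, S100a8 and S100a9 of macrophages, B cells, NK cells and neutrophils were at 0 counts in all 6 libraries. Other genes of these lists were detected: the neutrophil list stood at 5.28 to 6.27 CPM in PBS and 0.551 to 0.689 CPM in PM2.5, nearly all Ly6g. The macrophage list, mostly Cd68, stood at 5.59 to 6.77 and 2.76 to 3.10 CPM, and the B cell list, led by Cd79b, at 1.03 to 1.70 and 0.236 to 0.441 CPM. The dendritic cell list was higher with particles, at 2.56 to 3.50 against 0.948 to 1.30 CPM, as was the NK cell list, at 0.842 to 1.10 against 0.0895 to 0.359 CPM. The part of these differences in the results was not tested. In bulk RNA, fewer cells of a type and less RNA per cell cannot be told apart.

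Synthetase transcripts made up 0.307, 0.308 and 0.307% of the counts of the PBS libraries for the 20 cytosolic genes together, and 0.817, 0.811 and 0.803% of those of the PM2.5 libraries. The share was 2.64 times larger with particles, and the groups did not overlap. The 16 mitochondrial genes together held 0.0448, 0.0444 and 0.0463% in PBS against 0.0440, 0.0450 and 0.0439% in PM2.5, and here the groups overlapped. The 3 scaffold genes went from 0.0135 ± 0.000591 to 0.0202 ± 0.000263% (SD, n = 3). Across all genes tested 35.2% were called higher and 35.3% lower at an adjusted p of 0.05, 70.6% in all. Of the 39 members 27 were called higher and 3 lower. The 3 libraries of a group lay wholly above or below those of the other for 74.9% of all genes tested (37.4% higher and 37.4% lower), and for 28 members (higher) and 3 members (lower). Of the cytosolic genes, 18 of 20 (90.0%) were called higher and none lower, and 12 of these were at least 2-fold higher, against 6.51% of all genes tested. The median log2 fold change was 1.16 for the cytosolic genes, 0.15 for the mitochondrial genes and 0.49 for the scaffold genes, beside -0.01 over all genes tested. The range from the lower to the upper quartile of all genes tested was -0.49 to 0.38.

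**Figure D1:**
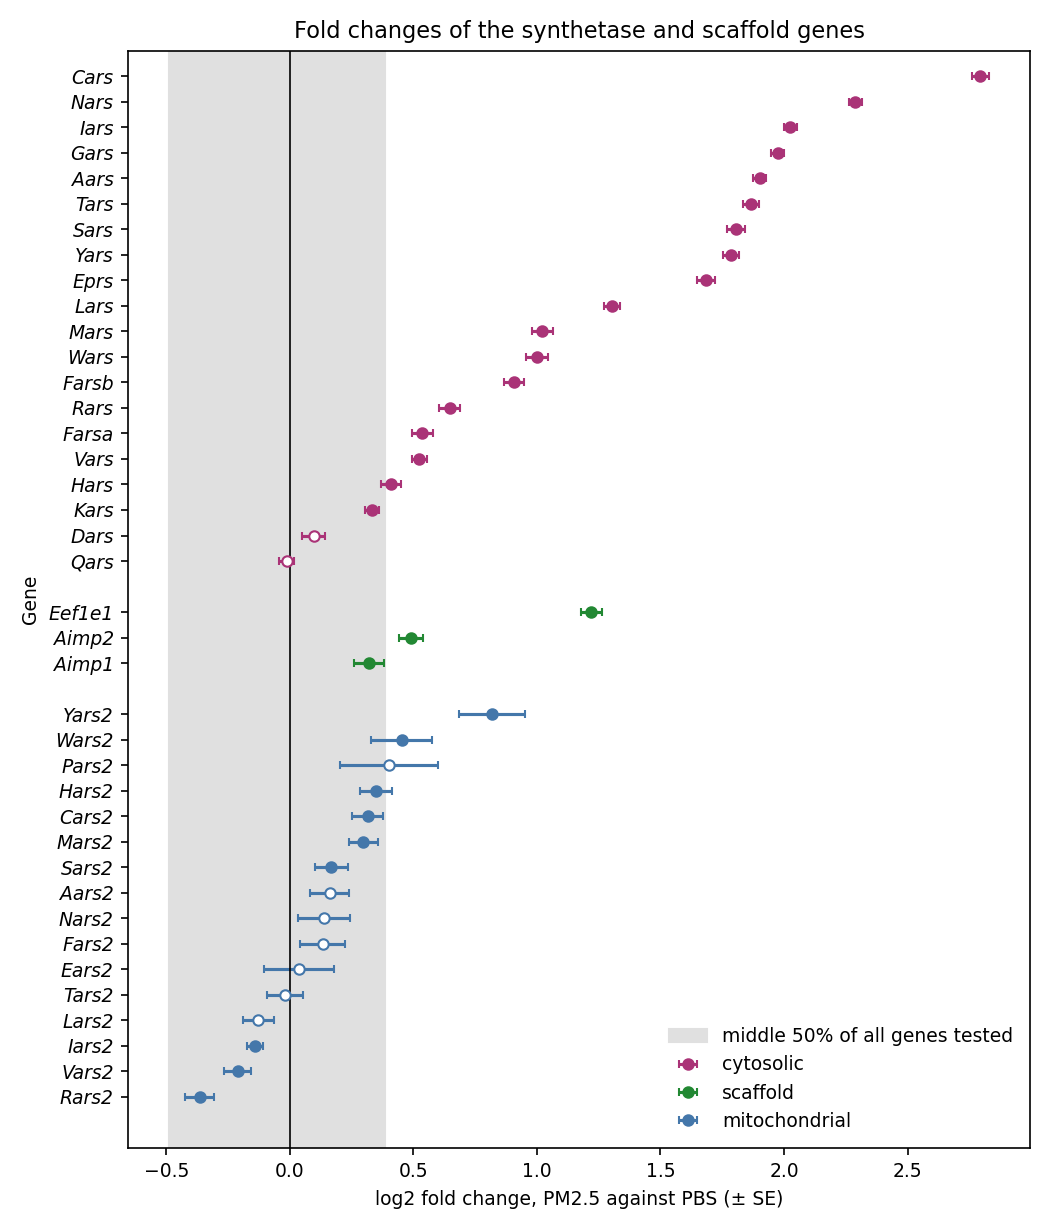
Log2 fold change of PM2.5 against PBS with its SE for the 39 genes, sorted within the cytosolic, scaffold and mitochondrial groups. Filled points passed an adjusted p of 0.05, open points did not, and the grey band spans the middle 50% of all genes tested. The cytosolic genes run from -0.01 (Qars) to 2.79 (Cars) and the mitochondrial genes from -0.37 (Rars2) to 0.82 (Yars2).

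The largest rise was that of Cars, which charges tRNA with cysteine (ENSMUSG00000010755, mm10 chromosome 7, 143557230 to 143600090). It stood at 53.5, 54.3 and 53.5 CPM in the PBS libraries and at 376, 361 and 382 CPM in the PM2.5 libraries. The groups lay far apart, with a log2 fold change (PM2.5 against PBS, edgeR) of 2.79, SE 0.03 and adjusted p = 3.17e-12. It had rank 105 among the rises of all genes tested. Nars, the asparagine enzyme (ENSMUSG00000024587), had 200, 202 and 194 CPM in PBS and 976, 965 and 972 CPM with particles, which made it the most abundant cytosolic synthetase transcript by counts in PM2.5. On the log2 scale it rose by 2.29 (SE 0.03), with an adjusted p of 3.16e-12 by edgeR.

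The enzymes for isoleucine, glycine, alanine, threonine, serine, tyrosine, and glutamate with proline formed a group of rises from 3.21-fold to 4.07-fold. Iars (ENSMUSG00000037851, chromosome 13, 49682100 to 49734267) had 180, 179 and 179 CPM in PBS against 730, 731 and 727 CPM (2.02 on the log2 scale, SE 0.03, adjusted p = 3.88e-12). Gars (ENSMUSG00000029777, chromosome 6, 55038007 to 55079500), whose gene also gives the mitochondrial glycine enzyme, had 228, 236 and 229 CPM against 913, 914 and 896 CPM (1.97, SE 0.03, adjusted p = 7.03e-12). Aars (ENSMUSG00000031960, chromosome 8, 111033144 to 111057664) had 245, 251 and 243 CPM against 929, 915 and 917 CPM (1.90, SE 0.03, adjusted p = 7.03e-12). These are 3 of the 5 genes whose promoters held the searched motif. Tars, the threonine enzyme, rose from 158 ± 4.95 to 576 ± 9.29 CPM and Yars, the tyrosine enzyme, from 85.2 ± 2.05 to 293 ± 4.00 CPM (SD, n = 3). Sars, the serine enzyme, rose from 161 ± 3.45 to 561 ± 24.5 CPM. Eprs, which encodes a single protein with both glutamyl and prolyl activity (ENSMUSG00000026615, chromosome 1, 185363044 to 185428360), had 239, 253 and 234 CPM in PBS and 791, 789 and 751 CPM with particles (1.68, SE 0.04, adjusted p = 7.47e-11). In each of these 7 genes the lowest PM2.5 library lay above the highest PBS library, as was so for 37.4% of all genes tested.

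A further set rose by less. Lars, the leucine enzyme, rose 2.47-fold, from 117 ± 2.20 to 288 ± 5.04 CPM. Mars, the methionine enzyme, rose 2.03-fold, from 112 ± 5.61 to 228 ± 6.88 CPM. Wars, the tryptophan enzyme, rose 2.00-fold, from 57.9 ± 2.61 to 116 ± 3.69 CPM. Mars shares 68 bases at its end with the stress gene Ddit3 on the other strand, which rose from 14.98 ± 1.03 to 240 ± 7.10 CPM, and whether the counting used strand is not given in the sources used here. Farsa and Farsb encode the alpha and beta subunits of the phenylalanine enzyme, which assembles from both. They rose unequally, Farsa 1.45-fold (log2 fold change 0.54, SE 0.04) and Farsb 1.87-fold (0.91, SE 0.04). Farsa went from 62.9, 64.3 and 62.8 to 96.1, 88.4 and 91.0 CPM, and Farsb from 83.1, 86.8 and 81.6 to 160, 150 and 161 CPM.

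Besides Farsa, the smaller rises were those of Rars, the arginine enzyme (0.65, SE 0.04), Vars, the valine enzyme (0.52, SE 0.03), Hars, the histidine enzyme (0.41, SE 0.04), and Kars, the lysine enzyme (0.33, SE 0.03), on the log2 scale. Kars (ENSMUSG00000031948, chromosome 8, 111993440 to 112011323), whose gene also gives the mitochondrial lysine enzyme, had 268, 265 and 271 CPM in PBS and 336, 344 and 333 CPM with particles (adjusted p = 2.08e-06). Its groups did not overlap, although its change lay within the middle 50% of all genes tested.

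Qars, the glutamine enzyme (ENSMUSG00000032604, chromosome 9, 108507713 to 108515941), had 185, 184 and 189 CPM in PBS and 184, 188 and 180.5 CPM with particles, and the groups overlapped (-0.01 on the log2 scale, SE 0.03, adjusted p = 0.709). Under library totals or a filter at a mean of 5 CPM, which lower all genes by a median of 0.06 to 0.07 on the log2 scale, it passed as a fall (-0.08). Dars, the aspartate enzyme (ENSMUSG00000026356, chromosome 1, 128363707 to 128417368), had 101, 105 and 96.8 CPM against 114, 107 and 103 CPM (0.10, SE 0.05, adjusted p = 0.0905). It passed without PBS replicate 2 (0.13) or without PM2.5 replicate 3 (0.14).

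**Figure D2:**
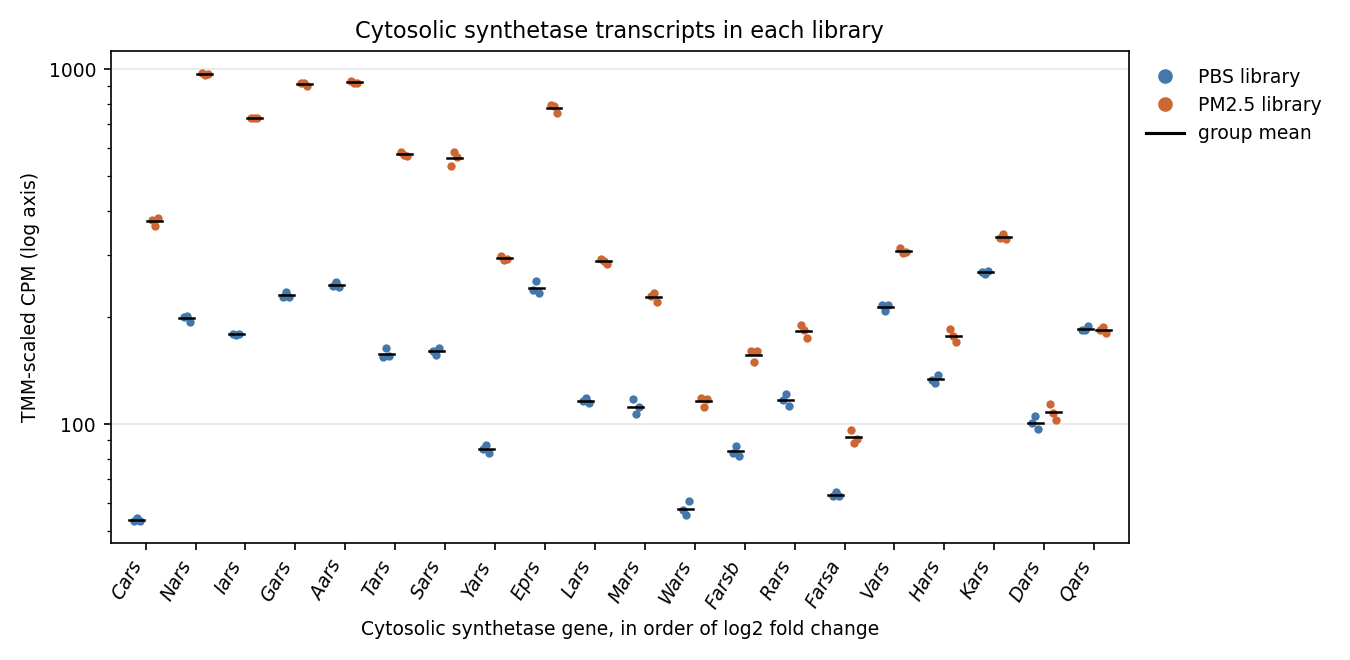
TMM-scaled CPM of the 20 cytosolic synthetase genes on a log axis, with 3 points per group, 1 for each library, and bars at the group means. From Cars on the left (53.5 to 54.3 CPM in PBS, 361 to 382 CPM in PM2.5) the distance between the groups shrinks to Qars on the right, where the points overlap.

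Enzymes of the multisynthetase complex and free enzymes both rose in most cases. All 12 genes of free enzymes rose, 8 of them at least 2-fold, with a median log2 fold change of 1.80, beside 35.2% of all genes tested called higher and 6.51% called at least 2-fold higher. Of the 8 genes of complex enzymes 6 rose, 4 of them at least 2-fold, with a median of 0.83, and Qars and Dars were the members that did not pass. The summed level of the free enzymes went from 1686 ± 9.10 to 5453 ± 29.0 CPM, 3.23 times, and that of the complex enzymes from 1322 ± 11.4 to 2835 ± 54.2 CPM, 2.14 times (SD, n = 3). Within the complex the changes ran from -0.01 (Qars) to 2.02 (Iars). The structural classes of the enzymes, which differ in the fold of their catalytic domain, had close shares of rises: 8 of 9 class I genes rose (88.9%) with a median of 1.02, and 9 of 10 class II genes rose (90.0%) with a median of 1.36, leaving out Eprs, which joins both. These splits are descriptions and were not tested.

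The scaffold genes rose to different extents. Eef1e1, which encodes the scaffold protein AIMP3, had 32.1, 32.8 and 32.9 CPM in PBS and 75.2, 77.7 and 74.7 CPM in PM2.5, groups far apart (1.22 on the log2 scale, SE 0.04, adjusted p = 2.21e-09). Aimp2, which links several enzymes of the complex, had 38.9, 35.7 and 37.6 against 52.2, 53.0 and 52.5 CPM (0.49, SE 0.05, adjusted p = 6.86e-06). Aimp1, which binds tRNA, had 68.0, 62.7 and 56.7 against 77.7, 78.9 and 77.6 CPM (0.32, SE 0.06, adjusted p = 0.000749). In all 3 genes every PM2.5 library was above every PBS library, as was so for 37.4% of all genes tested. Aimp2 overlaps Eif2ak1 by 1548 bases and Aimp1 overlaps Tbck by 227 bases, both on the other strand, so their counts can share reads.

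Of the 16 mitochondrial genes 6 rose (37.5%, beside 35.2% of all genes tested) and 3 fell (18.8%, beside 35.3%). None changed 2-fold. The largest rise was that of Yars2, the tyrosine enzyme, with 12.6, 10.9 and 9.84 CPM in PBS and 19.4, 22.8 and 16.6 CPM in PM2.5 (0.82, SE 0.13, adjusted p = 0.000624). Every PM2.5 library was above every PBS library, with a wide spread among the PM2.5 libraries. Wars2 (0.45, SE 0.12), Hars2 (0.35, SE 0.07), Cars2 (0.32, SE 0.06) and Mars2 (0.30, SE 0.06), for tryptophan, histidine, cysteine and methionine, also rose on the log2 scale. Cars2 overlaps Carkd by 940 bases on the other strand, so their counts can share reads. Wars2 had the lowest counts of the list, at 4.19 ± 0.16 CPM in PBS and 5.74 ± 0.72 CPM in PM2.5. Sars2, the serine enzyme, passed narrowly (0.17, SE 0.07, adjusted p = 0.0464), with 28.2, 24.9 and 27.0 against 29.1, 31.9 and 29.0 CPM. It lost its call in 10 of 13 alternatives, over a range of adjusted p from 0.0339 to 0.200.

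The mitochondrial genes that fell were Rars2, Vars2 and Iars2, for arginine, valine and isoleucine. Rars2 (ENSMUSG00000028292, chromosome 4, 34614957 to 34660167) had 30.7, 34.0 and 31.2 CPM in PBS and 24.4, 25.1 and 24.9 CPM in PM2.5 (-0.37, SE 0.06, adjusted p = 0.000269). Vars2 went from 33.8 ± 1.30 to 29.2 ± 0.81 CPM (-0.21, SE 0.05, adjusted p = 0.00575). Iars2, the most abundant mitochondrial synthetase transcript by counts, had 119, 119 and 119 CPM against 106, 111 and 107 CPM (-0.14, SE 0.03, adjusted p = 0.00336). It overlaps Rab3gap2 by 2034 bases on the other strand. In these genes every PM2.5 library lay below every PBS library, as was so for 37.4% of all genes tested. The cytosolic genes for the same amino acids rose. The remaining 7 genes, Aars2, Ears2, Fars2, Lars2, Nars2, Pars2 and Tars2, had log2 fold changes of -0.13 to 0.40 and did not pass. Pars2, the proline enzyme, had the widest error of the list (0.40, SE 0.20), and it passed as a rise without PBS replicate 3 (0.63) and with the replicate number as a block (0.42). Aars2, the alanine enzyme, passed as a rise without PBS replicate 1 (0.23). Lars2, the leucine enzyme, passed as a fall with library totals (-0.19), the filter at a mean of 5 CPM (-0.19) and limma on FPKM (-0.17 and -0.19), which lower all genes, and without PM2.5 replicate 3 (-0.17).

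**Figure D3:**
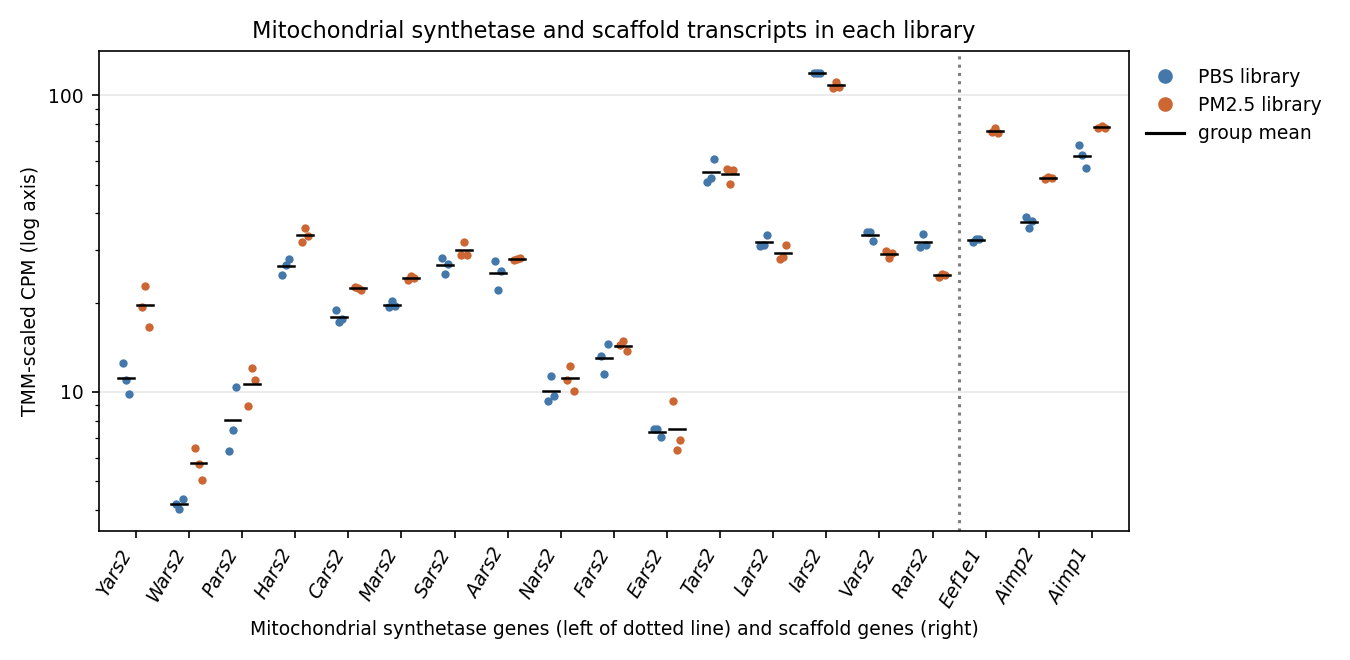
TMM-scaled CPM of the 16 mitochondrial synthetase genes, left of the dotted line, and the 3 scaffold genes, right of it, on a log axis, with 1 point per library and bars at the group means. Most mitochondrial genes lie near the same level in both groups, from Wars2 at about 4.19 CPM in PBS to Iars2 at 119 CPM, whereas Eef1e1 moves from 32.6 to 75.9 CPM.

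Because a ratio within a library does not depend on how libraries are scaled, each cytosolic gene was divided by the mitochondrial gene for the same amino acid, in counts per kilobase of the principal transcript. For 12 of 13 amino acids with 1 gene of each kind the ratio was higher in every PM2.5 library than in every PBS library, by 1.47-fold to 5.57-fold. Of all single genes tested, 37.4% had every PM2.5 library above every PBS library, and no such share was computed for ratios of other gene pairs. The ratios use the same counts as the fold changes given above, so they are not separate evidence of the cytosolic rises. Cars to Cars2 went from 1.67, 1.86 and 1.79 to 9.84, 9.55 and 10.2. Iars to Iars2 went from 1.86, 1.85 and 1.86 to 8.50, 8.12 and 8.40, a 4.49-fold change with a small spread in both groups. Nars to Nars2 went from 27.2 ± 2.56 to 121 ± 11.9 (SD, n = 3), the highest ratio in PM2.5, while in PBS that of Wars to Wars2 was higher, at 33.3 ± 0.35. The order between amino acids depends on the lengths used. On the scale of the authors' FPKM, PBS had means of 77.1 for Nars and 1.15 for Nars2, against 12.3 for Wars and 0.461 for Wars2. There the ratio for Nars was the higher in PBS too. For arginine the ratio rose 2.01-fold, from 3.25 ± 0.11 to 6.55 ± 0.34, through a rise of Rars together with a fall of Rars2.

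Histidine was the exception. Hars to Hars2 had ratios of 9.0, 8.23 and 8.22 in PBS and 9.73, 8.31 and 8.53 in PM2.5, so the groups overlapped, and both genes had risen by like amounts (0.41 and 0.35 on the log2 scale). Hars and Hars2 lie head to head and overlap by 198 bases on opposite strands. With Eprs set against Ears2 and Pars2, and Farsa and Farsb against Fars2, 16 of 17 ratios had groups that did not overlap. Some of these ratios share a gene (Eprs or Fars2), and the share for ratios of other gene pairs was not computed. An exact two-sided permutation test of 3 against 3 libraries cannot give a p below 0.1, which was the value for each of these 16, and the smallest value adjusted over the 17 ratios was 0.106.

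**Figure D4:**
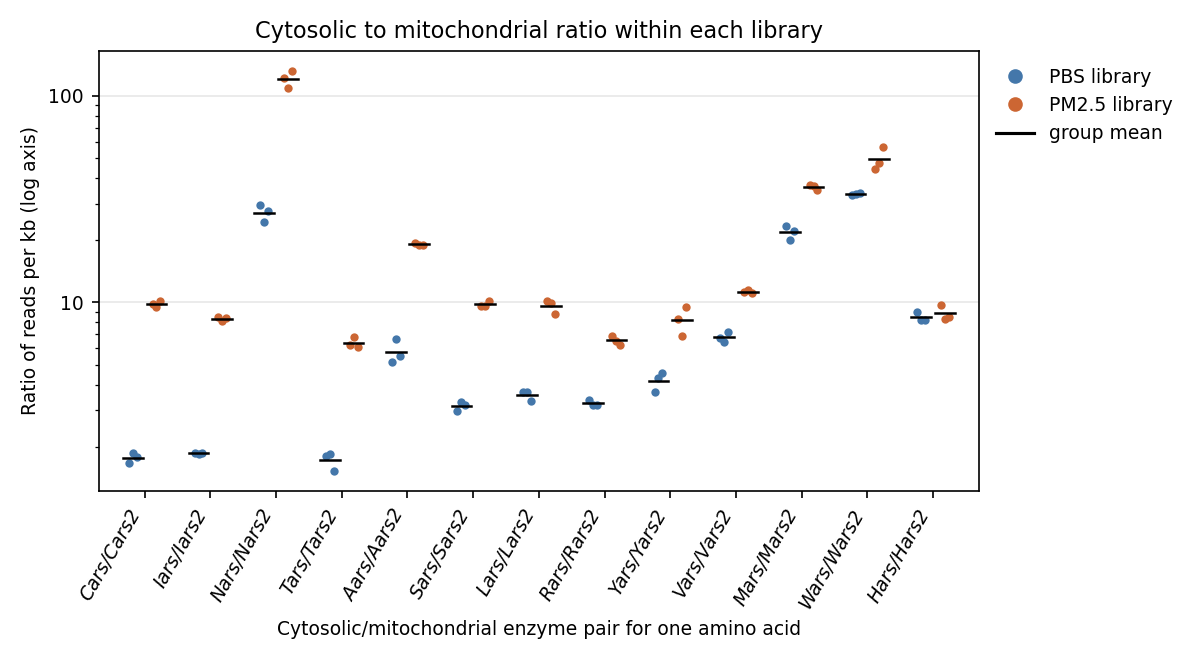
Ratio of cytosolic to mitochondrial transcript in counts per kilobase within each library, on a log axis, for the 13 amino acids with 1 gene of each kind, in order of the change. Points are libraries and bars are group means. The ratio for cysteine moves from 1.77 to 9.86 and that for histidine, on the right, from 8.48 to 8.86 with overlapping points.

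Levels between genes were compared as TMM-scaled CPM per kilobase of the principal transcript. In PBS the cytosolic genes ran from 133 for Kars, 97.1 for Gars and 72.4 for Nars down to 16.7 for Cars, with a median of 43.9. In PM2.5 they ran from 381 for Gars, 354 for Nars and 168 for Kars down to 49.7 for Dars, with a median of 95.1. Cars moved from the lowest of the 20 levels to rank 9, at 116, and Qars from rank 5 to rank 17, with levels of 66.5 and 65.8. Neighbours in these orders had libraries that did not overlap in 10 of 19 cases in PBS and in 11 of 19 in PM2.5, so many ranks are not set apart from the next. The mitochondrial genes lay lower, with medians of 7.57 in PBS and 7.96 in PM2.5, Tars2 highest (22.9 and 22.6) and Wars2 lowest (0.951 and 1.30). The order depends on the lengths used. The lengths implied by the authors' FPKM were 0.404 to 5.89 times the principal transcripts, and on the FPKM scale the highest cytosolic gene was Kars in PBS (103) and Nars in PM2.5 (361), and the lowest Cars in PBS (9.02) and Qars in PM2.5 (13.2). Among the mitochondrial genes Sars2 was highest on the FPKM scale (14.3 in PBS and 15.3 in PM2.5), and Tars2 had rank 8 in both groups.

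Other genes of tRNA maturation, charging and delivery changed less. Of 36 genes of this list 21 rose (58.3%, beside 35.2% of all genes tested) and 8 fell (22.2%, beside 35.3%), with a median log2 fold change of 0.19. Only Xpot, the factor that exports tRNA from the nucleus, was at least 2-fold higher, with a rise from 113 ± 0.70 to 422 ± 6.51 CPM (1.90, SE 0.03, adjusted p = 9.55e-12), a size like that of Aars. Of 10 genes of tRNA processing and export 6 rose (60%) and 2 fell (20%), among them rises of Trnt1, which adds the CCA end that synthetases charge (0.94, SE 0.04), Elac2, which trims the end of tRNA precursors (0.80, SE 0.04), and Rtcb, the tRNA splicing ligase (0.30, SE 0.03). Of 6 genes of mitochondrial tRNA processing and modification 3 rose (50%) and 2 fell (33.3%), with Trmt10c, a subunit of mitochondrial RNase P, at 0.81 (SE 0.06). Mammalian mitochondria make glutaminyl-tRNA through Ears2 and an amidotransferase of 3 subunits. Chosen after their values were seen, those subunits moved apart: Gatb fell (-0.42, SE 0.11), Gatc rose (0.23, SE 0.06) and Qrsl1 stood at 0.15 (SE 0.07, adjusted p = 0.0807).

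Among 7 other synthetase-like and editing enzymes 2 rose and 2 fell (28.6% each), close to the 35.2% and 35.3% of all genes tested. Sepsecs, which completes selenocysteine on its tRNA, rose (0.83, SE 0.06), and Dtd1, which removes D-amino acids from tRNA, fell (-0.61, SE 0.07). Of 6 genes that deliver charged tRNA to the ribosome 5 rose (83.3%, beside 35.2% of all genes tested), with log2 fold changes over the 6 of 0.12 to 0.39. Of 7 genes of uncharged tRNA and stalled ribosome sensing 5 rose (71.4%) and 2 fell (28.6%). Eif2ak4, which encodes the uncharged tRNA sensor GCN2, fell from 55.6 ± 1.36 to 43.6 ± 0.77 CPM (-0.35, SE 0.04, adjusted p = 4.22e-05), while Gcn1l1, its partner on the ribosome, rose from 183 ± 6.52 to 280 ± 3.67 CPM (0.61, SE 0.03) and the ribosome rescue factor Hbs1l rose (0.41, SE 0.05).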

How the data were processed

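RNA-seq of 3 PBS and 3 PM2.5 libraries was used. The authors deposited raw counts per Ensembl gene and FPKM, per the file headers. TopHat2 2.0.6 and mm10 come from the submitters' processing notes. How reads were counted, on which annotation and whether by strand is not given in the sources used here, so overlapping genes can share reads. The deposited FPKM equal the count over the library total and 1 length per gene, within 0.0485% over 12172 genes. Genes were kept with filterByExpr (minimum count 10, minimum total 15), which left 12967 of 34745, and tested in edgeR 4.0.16 (R 4.3.3) with TMM scaling by the quasi-likelihood test between the groups, two-sided, with Benjamini-Hochberg adjustment over all genes tested and a threshold of 0.05. The SE was obtained as |log2 fold change| divided by √F. The common biological coefficient of variation was 8.17%. The edgeR fit was tried on simulated counts, and the other steps were not checked in this way. Alternatives were library totals, DESeq2 1.42.0, no filter, a filter at a mean of 5 CPM, limma 3.58.1 on log2(FPKM + 1) and log2(FPKM + 0.1), the replicate number as a block, and each library left out. All members are named; of the other tRNA genes, the 10 with the smallest adjusted p, and outside that rule Gatb, Gatc and Qrsl1. Members and lists were chosen with earlier results of these data known. Principal transcripts are those marked by APPRIS in GENCODE M21, which also gave the strands used for overlaps. The gene spans come from the deposited table. Replicate libraries differed by more than counting error, with a chi-square per degree of freedom of 7.57 to 9.89. The median per gene was lower, at 0.856 to 1.24, so a part of the genes raised that value. Each library was kept as 1 replicate.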

Additional observations from a re-analysis of the deposited data

How the results depend on the processing

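Of the 20 cytosolic genes 18, and all 3 scaffold genes, kept their direction and call in all 13 alternatives, as did 10 of the 16 mitochondrial genes (Wars2 in the 12 that tested it). No cytosolic gene was called lower, except Qars with library totals and with the filter at a mean of 5 CPM (1 gene each). The median of the cytosolic genes was 1.099 with library totals, 1.098 with that filter, 1.073 and 1.097 with limma on log2(FPKM + 1) and log2(FPKM + 0.1), and 1.151 to 1.189 with libraries left out. The median of the mitochondrial genes was 0.08487, 0.0723, 0.07895 and 0.08939 in the same 4 settings and 0.09712 to 0.1828 with libraries left out. In those 4 settings the log2 fold changes of single genes differed from the main fit by a median of -0.064, -0.066, -0.060 and -0.063 over all genes. Signs turned for Ears2, to -0.028 with library totals, -0.02921 under that filter, -0.02126 and -0.04432 in the limma fits and -0.1472 without PM2.5 replicate 1, for Qars to 0.008026 without PM2.5 replicate 3, and for Tars2 to 0.0582 without PBS replicate 3 and 0.03389 without PM2.5 replicate 2; none of these values passed the test. With libraries left out Ears2 ranged from -0.1472 to 0.1491, Qars from -0.02538 to 0.008026 and Tars2 from -0.07309 to 0.0582. Aars2 passed without PBS replicate 1 (0.2323) and Pars2 without PBS replicate 3 (0.6284).

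No pairing by the replicate numbers of the labels was seen: deviations of same-numbered libraries from their group means correlated at -0.0164, -0.0175 and 0.0515. With 3 libraries a group and their origin not given, this cannot exclude a pairing by mouse or culture. With the replicate number as a block, 9002 genes were called in place of 9149; Sars2 lost its call (0.1672) and Pars2 gained one (0.416). The genes with SEs above 0.10 were Wars2, Ears2, Pars2, Nars2 and Yars2 (0.10 to 0.20), at 80 to 583 counts a library, against 0.03 to 0.05 for the cytosolic genes.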
